A study of Homo sapiens with 6 samples.

Results

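The comparison follows a single human embryonic stem cell line from the primed to the naive state: naive cells that had been obtained with a constitutively active p38 kinase (CA-p38) were set against the primed cells of the line from which they came. It has 2 members, 1 CA-p38 naive library and 1 CA-p38 primed library, out of 6 libraries of bulk RNA sequencing in the series. The remaining 4 were 2 libraries of naive cells induced with AICAR, 1 library of naive cells induced with VPA, and 1 library of the EOS primed line that gave rise to those 3. The 2 members were chosen by their labels and by no measured value.

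Every library came from a line that carried an EOS reporter, in which an enhancer of the Oct4 gene drives EGFP and a puromycin resistance gene. The CA-p38 line was made from the EOS line by adding a piggyBac transgene that expresses the active p38 together with mCherry in the presence of doxycycline. Below, EOS-derived refers to the AICAR and VPA naive cells only. It had been enriched by sorting for mCherry, and whether it was a single clone is not given in the sources used here. To obtain CA-p38 naive cells, doxycycline was given in PXGL medium (a MEK inhibitor, a tankyrase inhibitor, a protein kinase C inhibitor and LIF) on mouse fibroblast feeders. The library is of the stage labelled as day 7 of induction followed by 12 passages in that medium without doxycycline. It describes cells after doxycycline had been withdrawn, and whether the transgene was silent was not tested. AICAR, an activator of AMPK, was given for an induction stage of 14 days and then at a lower dose before it was removed. VPA, a histone deacetylase inhibitor, was given in another medium up to day 9, and both kinds of cells were then kept in PXGL without inducer. The VPA naive library is of cells at 12 passages after induction, as is the CA-p38 naive library. Naive cells were sorted as CD75 and SUSD2 positive before RNA was made. The study also describes a later transfer of CA-p38 naive cells to PXGL without feeders, and whether the sequenced cells had been transferred is not given. Primed cells grew in StemFit medium on Matrigel without feeders and were not sorted. Sorting, medium and any growth on feeders therefore cannot be told apart from the naive and primed states. The labels call the line H1-EOS, and the text of the study H9-EOS.

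Naive human pluripotent stem cells resemble the epiblast of the blastocyst before implantation, and primed cells the epiblast after it. Primed cells rely on FGF and activin signals and run an active ERK pathway, whereas naive cells are kept with MEK blocked and with LIF, which acts through STAT3. The kinase p38, encoded by MAPK14, is a stress-activated MAP kinase that is switched on by MKK3 and MKK6 and passes the signal to kinases such as MK2 and to transcription factors of the ATF2 and MEF2 families.

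The 6 libraries held 46823699 to 54277064 counts (49623532 in CA-p38 naive and 52274570 in CA-p38 primed), so that 3 counts, the upper limit that a count of 0 allows, correspond to about 0.06 CPM, which are counts per 1000000 counts of the scaled library total. With 1 library on each side there was no test of the states: a fold is given with its exact 95% interval, in parentheses, which covers counting error only and not the spread between cultures. A gene was called higher or lower where the whole interval lay beyond 2-fold. As a yardstick for differences between libraries of 1 state, the same call rule was applied to 2 other pairs. It called 4.85% of 29937 genes for AICAR 1 against AICAR 2, and 3.19% of 28146 genes for the primed libraries of the CA-p38 and EOS lines. Neither pair is known to measure the spread between cultures of 1 condition. The primed libraries are of different lines, although the CA-p38 line was made from the EOS line. The study gives different passage numbers for the sequenced AICAR cells, so that this pair was not matched for passage. Whether the AICAR libraries are separate cultures is not given in the sources used here. Among the 13202 genes whose mean level reached 5 CPM, 95% of the differences between the AICAR libraries lay within 0.63 on the log2 scale, and 95% of those between the primed libraries within 0.64. CPM values are compared within a gene, across libraries, and not between genes.

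MAPK14 (chr6:36027782-36111236, plus strand, GRCh38), the gene that encodes p38α, was measured at 55.3 CPM in CA-p38 naive, 52.4 in CA-p38 primed, 51.8 and 41.0 in AICAR 1 and 2, 52.8 in VPA naive and 45.7 in EOS primed. The level in CA-p38 naive was 1.06-fold (1.0 to 1.11) that in its own primed line, within the 2-fold limit. Counts of this gene cannot tell the endogenous transcript from that of the transgene, and the transgene itself was not analysed here. Of the related kinase genes, MAPK12 stood at 34.1 CPM in the naive and 36 CPM in the primed cells of the line and MAPK11 at 4.64 and 3.88 CPM, and neither was called. MAPK13 (p38δ) was 2.34-fold higher (2.11 to 2.61), at 23.8 CPM against 10.2 CPM. EOS primed held 18.2 CPM of MAPK13 and its naive derivatives 20.8, 20.9 and 23.0 CPM. The lowest of the 6 values was that of CA-p38 primed.

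Across the genome 29456 genes were measured well enough to compare, with at least 10 counts in 1 of the 2 libraries, and 31.2% of them were called: 4590 (15.6%) were higher and 4609 (15.6%) lower in CA-p38 naive. The median log2 fold was 0.07. Protein-coding genes were lower more often than higher (3408 against 2434 of 16704), and long noncoding RNAs were higher more often than lower (1214 against 679 of 7110). The whole interval lay beyond 16-fold for 530 higher genes and 519 lower genes. By the same rule 30.8% of genes were called for AICAR 1, 32.7% for AICAR 2 and 32.3% for VPA naive, each over EOS primed. Those 3 comparisons share the EOS primed library and are not independent of each other.

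Among protein-coding genes with at least 5 CPM, the 10 with the highest lower bounds included known genes of the early embryo and of naive cells. ALPG, an alkaline phosphatase of the germ line and placenta, went from 0.513 CPM in the primed to 2385 CPM in the naive cells of the line, 4646-fold higher (3147 to 7179). DNMT3L, the cofactor of the de novo DNA methyltransferases, went from 0.329 to 1192 CPM, 3627-fold higher (2234 to 6347). DPPA5 stood at 615 CPM against 0.144 CPM, 4282-fold higher (2078 to 10650.2). In these genes the primed library held only 25 counts of ALPG, 16 of DNMT3L and 7 of DPPA5. NLRP7 and KHDC3L, both known from the oocyte and from the setting of maternal imprints, stood at 922 and 148 CPM in CA-p38 naive. KHDC3L had 0 counts in CA-p38 primed and was at least 2406-fold higher. The other members of the 10 were FGF4 (1508-fold, 899 to 2759), ALPP, KHDC1L, the zinc finger gene ZNF729 and HOXB2, which had 0 counts in the primed library and 58.3 CPM in the naive library. In AICAR 1, AICAR 2 and VPA naive HOXB2 stood at 55.4, 44.3 and 59.0 CPM. ALPG and ALPP, and genes of the KHDC1 and zinc finger families, have near-identical relatives, so that reads may have been split among copies.

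Among the 10 genes with the lowest upper bounds were genes of ERK and Wnt signalling and of neural ectoderm. TNIK, a kinase of the β-catenin and TCF complex, was at 207 CPM in CA-p38 primed and had 1 count in CA-p38 naive, a ratio of 10499-fold (1884 to 414716). SFRP2, a secreted Wnt antagonist, went from 667 to 0.237 CPM and was 2812-fold lower (1609.7 to 5443). DUSP6, the phosphatase that switches off ERK, went from 297 to 0.0790 CPM and was 3761-fold lower (1469 to 13806). These and SPRY4, THY1, PTPRZ1, ENC1, HMCN1, CYYR1 and PLA2G3 were abundant in the primed cells and close to the floor in the naive cells. In EOS primed the same genes lay between 23.3 CPM (PLA2G3) and 480.4 CPM (SFRP2).

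The lists of state genes were read first. All 20 naive state genes were called higher, with a median log2 fold of 9.06 (8.55 with the genes at 0 counts in the primed library set to their bounds). KLF17, a transcription factor used to tell naive from primed cells, had 0 counts in CA-p38 primed and 21.5 CPM in CA-p38 naive, and was at least 349-fold higher. SUSD2 was 313-fold higher (248 to 399.8), and since the naive cells had been sorted for it, its value is no finding. The smallest fold in the list was that of ARGFX, at 4.80 against 0.986 CPM (4.87-fold, 3.56 to 6.78). Of 20 primed state genes 19 were called lower, with a median of -5.15. CD24, a surface protein of primed cells, went from 1339 to 24.9 CPM (53.8-fold lower, 50.8 to 56.9), and B3GAT1, the enzyme that makes the CD57 epitope, from 28.4 to 1.88 CPM (15.1-fold lower, 12.3 to 18.8). SALL3, at 18.6 and 12.5 CPM, was the member that was not called.

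Of 11 core pluripotency genes 3 were called higher and 1 lower, and POU5F1 (Oct4) was almost level, at 384 against 424 CPM. UTF1 was 66.2-fold higher (56.0 to 79.0), PRDM14 3.63-fold higher (3.47 to 3.80) and NANOG 2.26-fold higher (2.19 to 2.34). LIN28A, an RNA-binding protein that blocks let-7, was 3.66-fold lower (3.60 to 3.72), while its paralogue LIN28B stood at 291 against 190.2 CPM and was not called. SOX2 stood at 124 against 238 CPM and was not called.

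The plot of list members shows all 28 pathway lists, which were chosen with results of these data already known. The counts for each list are to be read against the 15.6% of all genes called in either direction alone. Among protein-coding genes, which make up most of the lists, the shares were 14.6% higher and 20.4% lower.

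**Figure D1:**
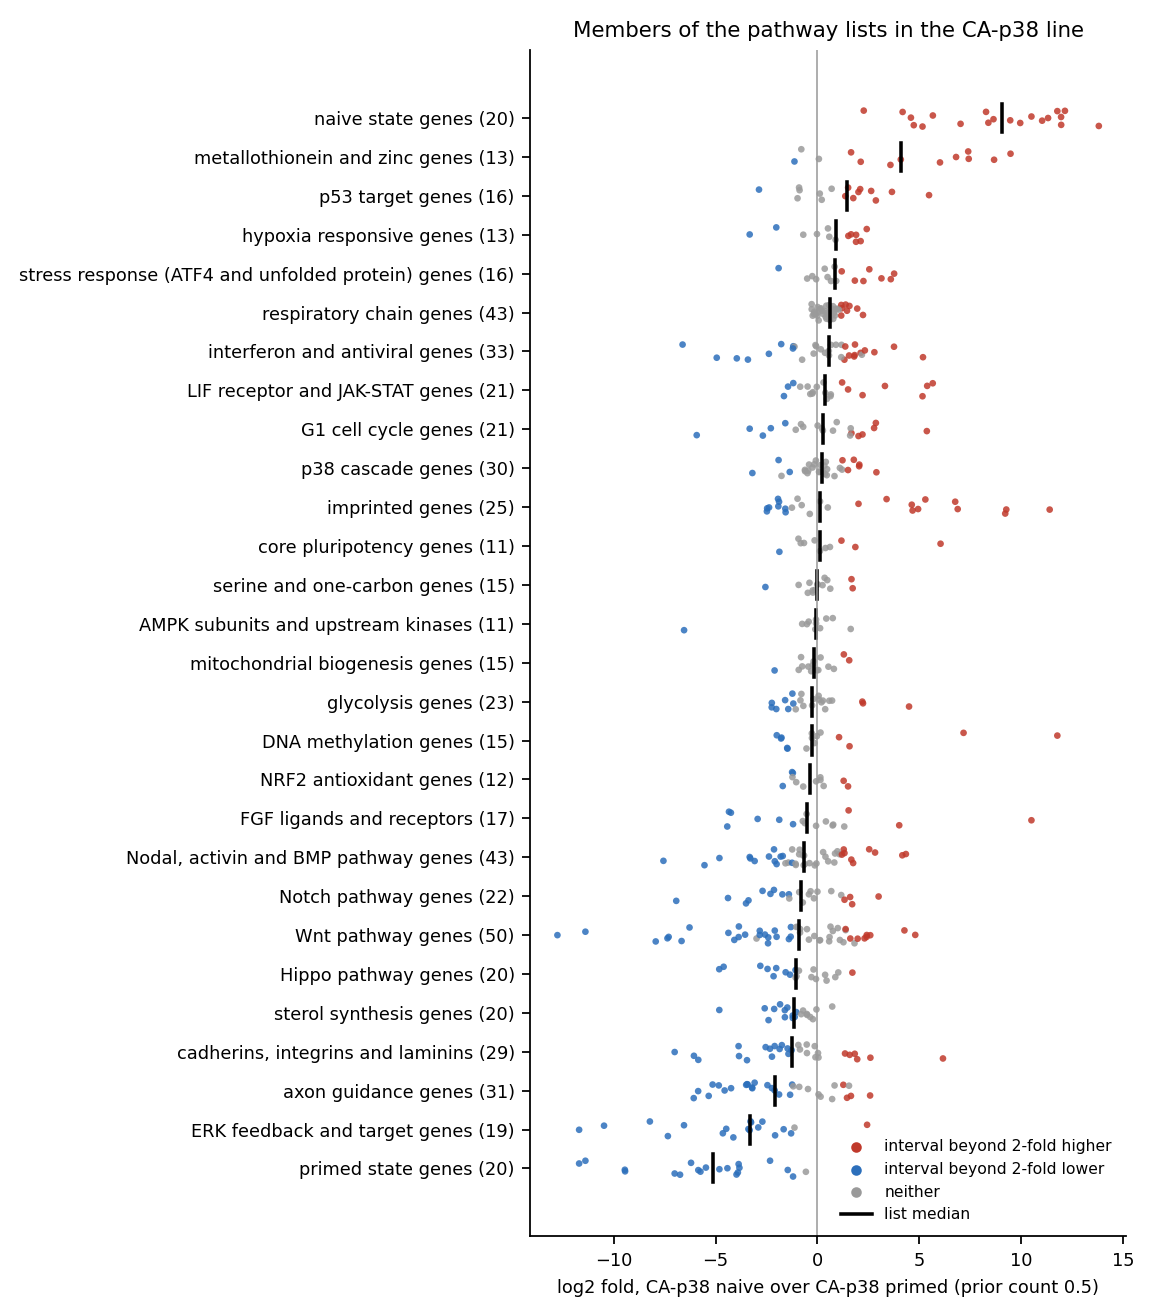
Each point is a gene of a pathway list, and the x axis is its log2 fold of CA-p38 naive over CA-p38 primed (prior count 0.5, 1 library each). Red and blue points are called higher and lower, grey points are not called, black bars are list medians and the number of genes tested is in parentheses. The list of naive state genes has the highest median (9.06) and that of primed state genes the lowest (-5.15).

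ERK feedback and target genes are transcribed with ERK activity, and only some of them dampen it. They were lower almost throughout: 17 of 19 were called lower and 1 higher, with a median log2 fold of -3.33. The sprouty genes SPRY1, SPRY2 and SPRY4 went from 25.2, 44.9 and 240.4 CPM to 2.57, 6.87 and 0.158 CPM. Among the transcription factors of the PEA3 group, ETV5 was 167-fold lower (107 to 278) and ETV1 309-fold lower (193 to 532), whereas ETV4 kept 49.4 of 156 CPM (3.16-fold lower, 3.02 to 3.31). MYC was 10.5-fold lower (9.41 to 11.8) and CCND1, the cyclin D1 gene, 10.1-fold lower (9.54 to 10.6). FOS went the other way, with 39.5 CPM in CA-p38 naive and 7.29 CPM in CA-p38 primed, and was 5.42-fold higher (4.84 to 6.08). FOSL1 was not called, at 2.73 against 5.97 CPM.

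FGF ligands and receptors split. Of 17 tested, 3 were called higher and 6 lower. FGF4, the ligand made by the epiblast of the blastocyst, was at 434 CPM in naive and 0.287 CPM in primed cells. FGF2 (2.30-fold lower, 2.15 to 2.45), FGF13 (7.67-fold lower, 7.22 to 8.17) and FGF19 (21.8-fold lower, 16.2 to 30.1) were lower, and the call of FGF2 was lost with scaling by library totals. The receptor genes also divided: FGFR1 was 19.1-fold lower (18 to 20.3), FGFR3 16.2-fold higher (14.9 to 17.6) and FGFR4 2.88-fold higher (2.75 to 3.03). FGFR2 was level, at 98.1 and 103 CPM.

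In the p38 cascade 6 of 30 genes were called higher and 3 lower, shares of the same order as over all genes, and the median log2 fold was 0.20. Of the kinases that activate p38, MAP2K3 (MKK3) stood at 42.4 against 33.6 CPM and was not called, while MAP2K6 (MKK6) was 2.57-fold lower (2.40 to 2.76) and MAP3K5 (ASK1), upstream of both, 9.42-fold lower (5.69 to 16.6). Of the kinases that p38 activates, MAPKAPK2 (MK2) was not called, MAPKAPK3 (MK3) was 3.76-fold lower (3.47 to 4.08) and RPS6KA4 (MSK2) 4.13-fold higher (3.83 to 4.45). DUSP16, a phosphatase of p38 and JNK, was 4.16-fold higher (3.82 to 4.53), whereas DUSP1, at 8.67 and 6.24 CPM, was not called. The stress-induced genes GADD45B, with 20.4 against 2.73 CPM (7.46-fold, 6.22 to 9.0), and ATF3, with 32.8 against 9.53 CPM (3.45-fold, 3.11 to 3.83), were higher. GADD45B stood at 24, 21.8 and 19.3 CPM in the naive cells that had not carried the transgene, and ATF3 at 40.7, 34.5 and 26.8 CPM. Of 11 genes of AMPK subunits and their upstream kinases 1 was called: PRKAA2, the α2 catalytic subunit, went from 10.2 to 0.0988 CPM.

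In the Wnt pathway 22 of 50 genes were called lower and 9 higher, with a median log2 fold of -0.91. Of the ligands, WNT3, WNT4, WNT6 and WNT11 were called higher and WNT5A lower: WNT3 was at 19.7 against 3.68 CPM (5.36-fold, 4.57 to 6.32) and WNT11 at 3.36 against 0.164 CPM (20.4-fold, 10.1 to 48.1), while WNT5A was 17.3-fold lower (11.4 to 27.6). Of the frizzled receptors, FZD7 (248-fold, 194 to 323) and FZD2 (104-fold, 71.8 to 157) were lower, with FZD1, FZD3 and FZD4, and FZD5 (3.06-fold, 2.98 to 3.14) and FZD6 (2.61-fold, 2.37 to 2.87) were higher, with FZD10. The antagonists SFRP1 (20.8-fold lower, 19.8 to 21.8), SFRP2 and FRZB were lower, as was the repressor TCF7L1 (14.7-fold lower, 13.6 to 15.8). CTNNB1, the gene of β-catenin, was 5.34-fold lower (5.19 to 5.50). The feedback target AXIN2 was not called, at 44.4 against 28.5 CPM.

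Among 43 genes of the Nodal, activin and BMP pathways 9 were called higher and 13 lower. The ligand genes NODAL, GDF3, BMP2, BMP4 and TGFB3 were called higher and TGFB2 and INHBE lower. NODAL stood at 121 against 20.8 CPM (5.82-fold, 5.44 to 6.22), GDF3 at 206 against 11.5 CPM (18-fold, 16.5 to 19.6) and BMP4 at 12.6 against 5.13 CPM (2.45-fold, 2.11 to 2.84). The Nodal antagonists LEFTY1 and LEFTY2 went in opposite directions, LEFTY1 being 5.22-fold lower (4.83 to 5.64) and LEFTY2 7.11-fold higher (6.51 to 7.77). The receptor genes TGFBR1 (3.50-fold lower, 3.28 to 3.75), TGFBR2 (28.6-fold lower, 20.0 to 42.4) and BMPR1A (4.40-fold lower, 4.14 to 4.67) were lower. Of the BMP targets, ID1 was level within the limit (49.3 against 34.2 CPM) and ID3 went from 46.8 to 0.237 CPM (197-fold, 113 to 383). CER1, CHRD and FST, which bind and block these ligands, were 48.4-fold lower (29.1 to 86.9), 8.56-fold lower (6.55 to 11.4) and 10.1-fold lower (8.35 to 12.3).

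**Figure D2:**
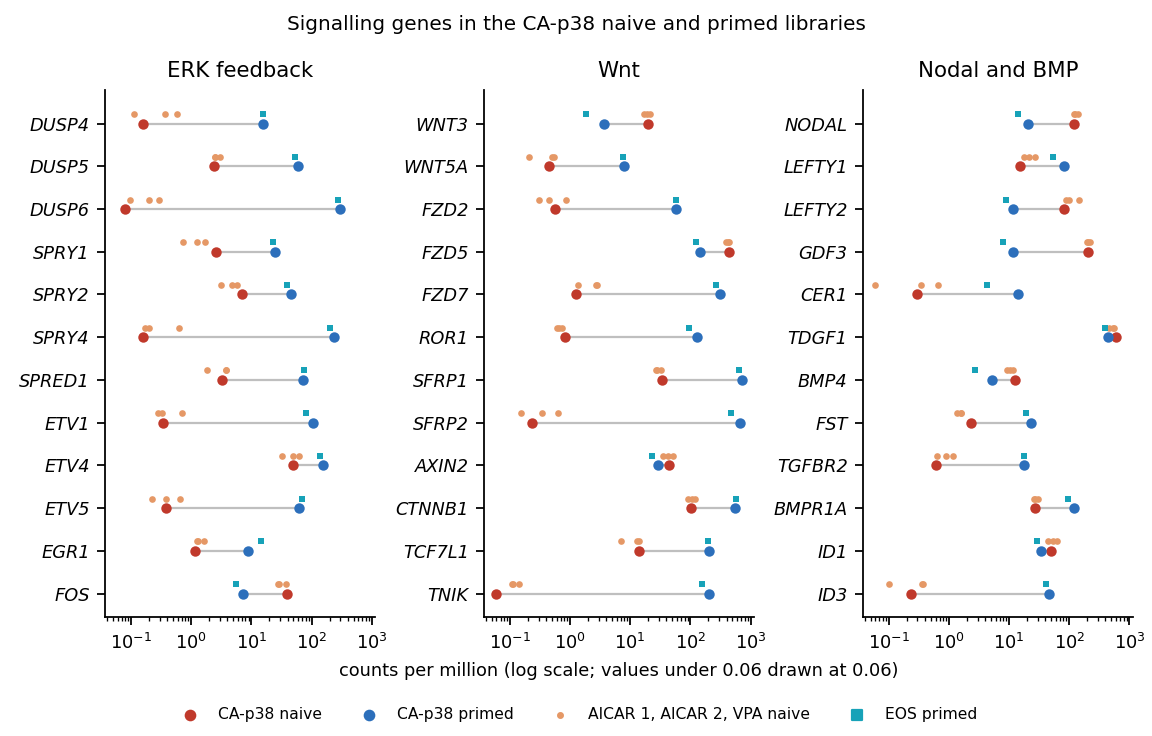
Large points give CPM (log axis) in the CA-p38 naive (red) and CA-p38 primed (blue) libraries, joined by a line, and small points the AICAR 1, AICAR 2 and VPA naive libraries (orange) and EOS primed (cyan), for genes of the ERK, Wnt, and Nodal and BMP pathways. FOS, WNT3, FZD5, NODAL and LEFTY2 are higher in CA-p38 naive, and DUSP6, SFRP2 and CER1 lower.

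LIF receptor and JAK-STAT genes were called higher 7 times and lower 3 times among 21. IL6ST (gp130), the signalling subunit shared by the LIF and IL-6 receptors, was 9.94-fold higher (9.21 to 10.7), and IL6R 35.8-fold higher (31.0 to 41.5), whereas LIFR itself was 3.14-fold lower (2.75 to 3.59). SOCS3, a STAT3 target that shuts the pathway off, was 2.31-fold higher (2.12 to 2.53) and BCL3, another STAT3 target, 42.1-fold higher (33.8 to 53.1). STAT3 was not called, at 176 against 128 CPM, and STAT5B was 2.73-fold lower (2.56 to 2.91).

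Notch genes were called lower 9 times and higher 4 times among 22. The receptors NOTCH1 (2.65-fold lower, 2.53 to 2.78), NOTCH2 (6.49-fold lower, 5.95 to 7.09) and NOTCH3 (4.96-fold lower, 4.69 to 5.25) and the targets HES1 (128-fold lower, 71.3 to 257) and HEY1 (21.8-fold lower, 12.8 to 40.3) were lower, and the ligand JAG2 was higher (8.02-fold, 7.11 to 9.07). In the Hippo pathway 9 of 20 were lower and 1 was higher, NF2 (3.28-fold, 3.12 to 3.46). YAP1 was 2.55-fold lower (2.45 to 2.65) and its paralogue WWTR1 (TAZ) stood at 73.6 against 36.3 CPM, short of a call. The TEAD genes, whose products carry both to DNA, were lower for TEAD1 (4.07-fold, 3.81 to 4.37) and TEAD3 (4.47-fold, 4.0 to 4.99) and not called for TEAD4.

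Of the adhesion genes, CDH1 (E-cadherin) stood at 346 against 57.0 CPM and was 6.06-fold higher (5.82 to 6.31), while CDH2 (N-cadherin) went from 134 to 1.03 CPM and was 131-fold lower (99.4 to 175). In all 15 of 29 cadherin, integrin and laminin genes were lower and 6 higher. The integrin genes ITGA5 (14.5-fold lower, 12.5 to 16.9), ITGA6 (5.85-fold lower, 5.58 to 6.13) and ITGB1 (4.30-fold lower, 4.22 to 4.38) and the fibronectin gene FN1 (5.04-fold lower, 4.86 to 5.24) were lower, and the laminin gene LAMA5 was higher (2.99-fold, 2.90 to 3.09). Of the regulators of the epithelial-mesenchymal transition, ZEB1 was 70.1-fold lower (39.0 to 141) and TWIST1 74.4-fold higher (43.3 to 140.2). Axon guidance genes were lower for 19 of 31 and higher for 4, with a median of -2.1. The semaphorin SEMA3A went from 87.4 to 1.28 CPM, the ephrin receptor EPHA2 from 46.5 to 0.790 CPM and the ligand EFNB1 from 54.3 to 1.88 CPM.

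Of 15 DNA methylation genes 4 were called higher and 5 lower. DNMT3L was among the highest folds, given above, while DNMT3B was 4.0-fold lower (3.96 to 4.05), DNMT1 3.46-fold lower (3.35 to 3.57) and UHRF2 3.41-fold lower (3.11 to 3.74). UHRF1, which brings DNMT1 to the replication fork, was not called, at 98.3 against 119 CPM. Of the TET demethylases, TET1 (208 against 100.01 CPM) and TET2 (24.6 against 8.25 CPM) were higher and TET3 was 2.78-fold lower (2.57 to 3.01). The call of TET1 was lost with DESeq2 size factors, where its log2 fold was 0.98. ZFP57, which protects imprints, was at 13.3 against 0.0821 CPM, a log2 fold of 7.17, or 7.86 with its 8 identifiers summed. Of 25 imprinted genes tested, 11 were higher and 8 lower. PEG3 had 0 counts in CA-p38 primed and 27.8 CPM in CA-p38 naive, and EOS primed also had 0 counts. MEG3 (1.01 to 629 CPM) and H19 (0.0821 to 55.1 CPM), both maternally expressed noncoding RNAs, were 625-fold higher (473 to 845) and 671-fold higher (262 to 2465). The genes of the Prader-Willi region were lower, with SNRPN from 589 to 159 CPM and NDN from 42.6 to 14.4 CPM, except MKRN3, which was 32.1-fold higher (17.7 to 64.9).

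MEG3 and H19 were among the 5 long noncoding RNAs of at least 5 CPM with the highest lower bounds, of which 4 are named here. With them were AC074050 (ENSG00000276867, at least 302-fold higher) and GPR1-AS (ENSG00000279220, at least 312-fold higher), both at 0 counts in CA-p38 primed. The table holds 3 identifiers under the symbol AC074050 and 2 under GPR1-AS, and with these summed the log2 folds were 7.66 and 9.09. The 5 with the lowest upper bounds included RMST, a neural long noncoding RNA that went from 7.49 CPM to 0 counts (at least 126-fold lower), AC024909 and AP003396, both also at 0 counts, AP000459 (ENSG00000228592, 125-fold lower, 89.6 to 181) and AC104257 (289.7-fold lower, 231 to 368). Another identifier shares the symbol AP000459 and was not called, and the log2 fold of their sum was -6.52.

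Glycolysis genes were lower for 7 of 23 and higher for 3 in CA-p38 naive, with a median log2 fold of -0.26, against medians of -1.21, -1.0 and -0.85 for AICAR 1, AICAR 2 and VPA over EOS primed. The glucose transporters SLC2A1 and SLC2A3 went from 346 and 725 to 128 and 153 CPM. PDK1, which keeps pyruvate out of the mitochondrion, was 4.07-fold lower (3.76 to 4.41), GAPDH 2.28-fold lower (2.26 to 2.30) and LDHB 3.01-fold lower (2.96 to 3.06). PFKL, the liver-type phosphofructokinase, was 4.6-fold higher (4.46 to 4.75) and PFKM, the muscle type, 4.74-fold lower (4.37 to 5.14). ENO2 was 4.71-fold higher (4.51 to 4.92) and SLC16A3 (MCT4), the lactate exporter, 22.7-fold higher (18.9 to 27.5).

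Genes of the respiratory chain encoded in the nucleus were called higher for 8 of 43 and lower for none, with a median of 0.59. NDUFA9 (4.71-fold, 4.49 to 4.95) and NDUFV1 (3.87-fold, 3.75 to 3.99), both of complex I, had the highest lower bounds, and COX7B (2.61-fold, 2.49 to 2.74), of complex IV, was also higher. The lowest point value of the 43 was that of COX7C, at 203 against 247 CPM. The 13 protein genes of mitochondrial DNA had a median log2 fold of 0.46 in the CA-p38 line, and medians of -0.07, 0.01 and 0.02 in AICAR 1, AICAR 2 and VPA over EOS primed. Their summed level was 32884 CPM in CA-p38 naive and 19482 CPM in CA-p38 primed, with 29577 CPM in EOS primed and 28908 to 35749.8 CPM in the other naive libraries. The low value was that of CA-p38 primed, and 3 of the 13 were called.

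Genes of mitochondrial biogenesis were called higher for 2 of 15, ESRRA (2.95-fold, 2.74 to 3.18) and PPARGC1B (2.45-fold, 2.29 to 2.63), and lower for ESRRB (4.47-fold, 2.21 to 9.98). TFAM, which packages mitochondrial DNA, was not called, at 75.9 against 144 CPM. Sterol synthesis genes were lower for 12 of 20 and higher for none, with a median of -1.17. HMGCS1, an enzyme of the entry into the pathway, was 4.37-fold lower (4.26 to 4.48). Serine and one-carbon genes were called higher for 2 of 15, MTHFD2 (3.31-fold, 3.23 to 3.40) and GLDC (3.18-fold, 3.10 to 3.27).

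Of 16 p53 target genes 9 were higher and 1 lower, with a median log2 fold of 1.44. In AICAR 1, AICAR 2 and VPA over EOS primed 9 were also higher in each, with medians of 1.54, 1.47 and 1.68. CDKN1A (p21), which halts the cycle in G1, stood at 41.7 against 5.71 CPM (7.31-fold, 6.45 to 8.31), GDF15 at 49.9 against 1.11 CPM (45.0-fold, 34.4 to 60.1) and MDM2, the ligase of p53, at 233 against 57.7 CPM (4.03-fold, 3.87 to 4.2). TP53I3 was the member that was lower (7.34-fold, 6.32 to 8.57). In the ATF4 and unfolded protein list 7 of 16 were higher and 1 lower, and 7, 7 and 6 were higher in AICAR 1, AICAR 2 and VPA over EOS primed. DDIT3 (CHOP) was 13.7-fold higher (11.1 to 17) and TRIB3 8.83-fold higher (8.07 to 9.68), whereas the chaperones HSPA5 and HSP90B1 were not called. Of 12 genes of the NRF2 antioxidant response 2 were higher and 3 lower.

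Metallothionein and zinc genes were higher for 10 of 13 and lower for 1, the zinc exporter SLC30A1 (2.19-fold, 2.02 to 2.38), whose call was lost when libraries were scaled by their totals. MT1G, a metal-binding protein, stood at 207 against 1.21 CPM (171-fold, 132 to 224) and MT2A at 106 against 6.18 CPM (17.1-fold, 15.2 to 19.2). MT1X was 4.36-fold higher (4.08 to 4.66), the smallest fold of the 8 metallothioneins. Members of this cluster are near-identical in sequence, so that values of single copies are uncertain. Interferon and antiviral genes were mixed, with 11 of 33 higher and 8 lower. IFITM1 (6.94-fold, 6.71 to 7.18) and IFI16 (36.4-fold, 31.1 to 42.9), which restrict viral entry and sense viral DNA, were higher, and HLA-C (31.0-fold, 25.5 to 38.1) and IFIT1 were lower. The fold of HLA-C is that of 1 of 7 identifiers with this symbol, and with all 7 summed its log2 fold was -2.58. IFIT1 had 1 count in CA-p38 naive and stood at 2.92 CPM in CA-p38 primed. In the G1 list 6 of 21 were higher and 5 lower: the D cyclins CCND1 and CCND2 (61.3-fold, 50.6 to 75.1) and RB1 (6.43-fold, 5.73 to 7.24) were lower, and CCND3 (3.18-fold, 2.97 to 3.41) and the inhibitor CDKN1B (4.63-fold, 4.22 to 5.09) higher.

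Markers of other cell types were read in the same way, and in bulk RNA fewer cells of a type and less RNA per cell cannot be told apart. The 12 markers of 8-cell-like cells include KLF17 and KHDC1L, which are also in the list of naive state genes. Of the 12 markers 10 were tested and called higher, 7 of them from 0 counts in CA-p38 primed. Genes at 0 counts there could reach the filter only through the naive library, so that their direction was set by the filter. ZSCAN4 was at 1.24 against 0.0205 CPM (1 count), and TRIM43 was at 3.42 CPM against 0 counts. AICAR 1 and AICAR 2 held 3.75 and 6.00 CPM of ZSCAN4 and VPA naive 1.69 CPM. Trophectoderm markers were higher for 7 of 11 and lower for 2. ELF3 was at 181 against 1.79 CPM and CDX2 at 2.45 CPM against 0 counts, and TEAD3, given above, was among the lower. The summed level of the 12 listed markers was lower in CA-p38 naive, at 321 CPM, than in CA-p38 primed, at 689 CPM. CGA, a defining gene of the trophoblast, held 3 and 2 counts in CA-p38 naive and primed and gets no fold. Hypoblast and endoderm markers were lower for 6 of 12, higher for 2 and not called for 4. The lower ones include OTX2, which is also a primed state gene. Summed over the 12, the level was 66.0 CPM in CA-p38 naive, 220 CPM in CA-p38 primed and 178 CPM in EOS primed. Of the lower members, FOXA2 went from 21.5 to 0.415 CPM and SOX17 from 4.89 to 0.375 CPM. EOMES, a mesendoderm gene taken from the mesoderm list, went from 7.45 to 1.19 CPM. EOS primed held 5.41, 1.57 and 1.22 CPM of the same genes, so that CA-p38 primed was the highest of the 6 libraries for each. The secreted antagonists CER1 (of Nodal and BMP), CHRD (of BMP) and DKK1 (of Wnt) are also known from endoderm and organizer. They were at 14.3, 10.3 and 1.62 CPM in CA-p38 primed and at 4.22, 3.53 and 0.102 CPM in EOS primed. Their part in the folds of the Wnt list and of the Nodal, activin and BMP list was not tested.

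Of 29456 genes tested in the CA-p38 line, 455 (1.54%) were called there while their point values stayed within 2-fold in AICAR 1, AICAR 2 and VPA over EOS primed. They are referred to as changed in the CA-p38 line only, a class set by these rules with no test of the difference. Of these, 278 were higher and 177 lower in CA-p38 naive, and 268 were protein-coding. The reverse class, called in the same direction in all 3 EOS-derived comparisons and within 2-fold in the CA-p38 line, held 349 genes (1.18%), 197 higher and 152 lower. In 4 genes (0.0136%) the directions were opposite. The counts depend on how many libraries must agree: without VPA naive they were 711, 543 and 7 genes, and without AICAR 1 they were 637, 562 and 8. They also depend on the range taken as unchanged, and with 1.5-fold in place of 2-fold the classes held 100, 96 and 4 genes.

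The 10 protein-coding genes that were higher in the CA-p38 line only and farthest from the EOS-derived folds were SLC16A3, CNNM1, COL3A1, SLC25A20, BNIP3, PFKFB4, STC2, BCL6, PLOD2 and NCR3LG1. SLC16A3 (chr17:82217934-82261129, plus strand) was measured at 54.9 CPM in CA-p38 naive, 2.42 in CA-p38 primed, 42.5 and 40.2 in AICAR 1 and 2, 71.4 in VPA naive and 36.3 in EOS primed. CA-p38 primed was thus far below every other library. BNIP3 (chr10:131967684-131981967, minus strand), a mitophagy receptor induced by low oxygen, was at 176 CPM in CA-p38 naive, 47.2 in CA-p38 primed, 143 and 128 in AICAR 1 and 2, 215 in VPA naive and 224 in EOS primed. It was 3.73-fold higher (3.56 to 3.90) in the CA-p38 line, and EOS primed was the highest of the libraries. PFKFB4, which sets the level of the glycolytic activator fructose 2,6-bisphosphate, was at 40.7 CPM in CA-p38 naive, 9.57 in CA-p38 primed, 39.4 and 29.5 in AICAR 1 and 2, 51.3 in VPA naive and 44.4 in EOS primed. PLOD2, a collagen lysyl hydroxylase, was at 75.9 CPM against 25.5 CPM in the CA-p38 line and at 78.0 CPM in EOS primed. STC2, a secreted glycoprotein of the stress response, was at 82.5 CPM in CA-p38 naive, 12.8 in CA-p38 primed, 76.6 and 78.2 in AICAR 1 and 2, 84.7 in VPA naive and 42.7 in EOS primed. Set against EOS primed in place of its own primed line, CA-p38 naive had log2 folds of -0.35 for BNIP3, -0.13 for PFKFB4 and -0.039 for PLOD2. The sign thus turned, at sizes within 2-fold. In each of these 5 genes CA-p38 primed was the lowest of the 6 libraries, with EOS primed and the 4 naive libraries all above it.

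SLC25A20, the carnitine carrier of the mitochondrion, differed in both states. It stood at 30.4 CPM in CA-p38 naive, 7.41 in CA-p38 primed, 57.1 and 53.7 in AICAR 1 and 2, 61.9 in VPA naive and 60 in EOS primed, so that CA-p38 naive lay below every EOS-derived library and CA-p38 primed lower still, and its log2 fold over EOS primed was -0.98. CNNM1 (7.37-fold, 5.20 to 10.7), BCL6 (5.85-fold, 4.30 to 8.12) and NCR3LG1 (4.19-fold, 3.17 to 5.61) stood at 5.45, 5.77 and 5.33 CPM in CA-p38 naive, which was the highest of the 6 libraries for each, while CA-p38 primed was the lowest.

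The hypoxia list, which was chosen after results of these data were known, holds 4 genes of the class changed in the CA-p38 line only: VEGFA, CA9, BNIP3 and P4HA2. Of 13 hypoxia-responsive genes 6 were higher and 2 lower in the CA-p38 line, with a median log2 fold of 0.89, against medians of -0.64, -0.81 and 0.02 in AICAR 1, AICAR 2 and VPA over EOS primed. VEGFA, the angiogenic growth factor, stood at 71.5 CPM in CA-p38 naive, 19.3 in CA-p38 primed, 61.0 and 46.2 in AICAR 1 and 2, 69.3 in VPA naive and 45.9 in EOS primed. DDIT4 (REDD1), an mTOR inhibitor induced by low oxygen and listed here with the ATF4 genes, went from 4.37 to 53.2 CPM (12.2-fold, 10.6 to 14), and stood at 67.5 CPM in EOS primed and 45.8, 31.4 and 82.2 CPM in its naive derivatives. Its log2 fold over EOS primed was -0.34. Not every member behaved so: ADM was 10.1-fold lower (8.98 to 11.3) in the CA-p38 line and PDK1, given above, was lower in all 4 naive libraries than in its own primed line. NDRG1 was level, at 3.77 and 3.84 CPM. Oxygen tension, density and harvest time of the cultures are not given in the sources used here for these libraries, and their part in these values was not tested.

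**Figure D3:**
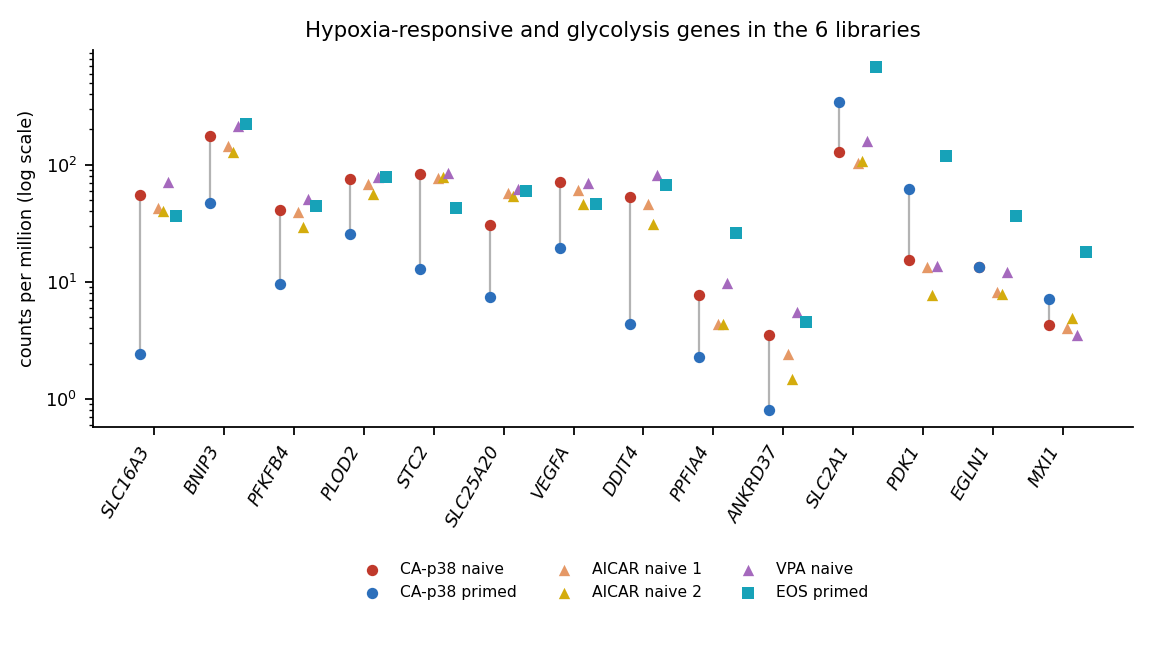
CPM (log axis) of 14 genes in each of the 6 libraries, with a line joining CA-p38 naive (red) and CA-p38 primed (blue). For SLC16A3, BNIP3, PFKFB4, PLOD2, STC2, SLC25A20, VEGFA, DDIT4, PPFIA4 and ANKRD37 the CA-p38 primed library is the lowest of the 6, and for SLC2A1, PDK1, EGLN1 and MXI1 EOS primed is the highest.

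The promoters of these genes are shown because hypoxia-inducible factors bind a short core sequence. The 250 bases before the RefSeq gene start (GRCh38.p14) were searched for ACGTG and GCGTG on both strands, where ACGTG also lies within the E-box CACGTG, which matches once on each strand and so counts as 2 matches in 1 run of capitals. Capitals mark each match, and the sequences run 5′ to 3′ on the gene's strand. BNIP3 (chr10:131981924-131982173, minus strand) holds 6 matches, PPFIA4 (chr1:203026241-203026490, plus strand) 3, PFKFB4 (chr3:48556804-48557053, minus strand) 1 and SLC16A3 (chr17:82228185-82228434, plus strand) 0. The RefSeq start of SLC16A3 lies inside the gene as GENCODE draws it, so that starts farther upstream are not covered.
BNIP3: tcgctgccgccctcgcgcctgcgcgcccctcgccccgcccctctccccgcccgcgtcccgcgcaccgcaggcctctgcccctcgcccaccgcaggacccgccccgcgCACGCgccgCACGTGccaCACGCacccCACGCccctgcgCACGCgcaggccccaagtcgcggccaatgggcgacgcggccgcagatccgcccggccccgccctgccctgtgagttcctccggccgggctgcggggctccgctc
PPFIA4: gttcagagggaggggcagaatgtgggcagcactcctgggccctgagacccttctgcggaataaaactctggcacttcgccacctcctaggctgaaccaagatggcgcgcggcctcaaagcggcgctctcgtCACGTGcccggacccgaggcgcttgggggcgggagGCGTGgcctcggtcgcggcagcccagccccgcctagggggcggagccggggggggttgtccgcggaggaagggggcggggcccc
PFKFB4: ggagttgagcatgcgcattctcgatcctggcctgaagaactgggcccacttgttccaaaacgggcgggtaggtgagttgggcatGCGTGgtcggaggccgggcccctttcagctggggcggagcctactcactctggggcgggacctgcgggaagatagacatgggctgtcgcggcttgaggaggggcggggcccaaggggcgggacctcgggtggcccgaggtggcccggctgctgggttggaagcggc
SLC16A3: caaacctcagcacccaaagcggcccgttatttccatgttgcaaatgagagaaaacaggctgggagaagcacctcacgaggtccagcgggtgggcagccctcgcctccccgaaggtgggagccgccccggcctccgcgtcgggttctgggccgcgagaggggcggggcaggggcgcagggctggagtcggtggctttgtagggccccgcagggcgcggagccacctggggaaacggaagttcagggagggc

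A match was present in 43.2% of 35116 promoters in the RefSeq set and in 54.2% of the 12900 that belong to protein-coding genes tested here. Of the 10 genes above 9 have a promoter in that set, and 8 of the 9 held a match, SLC16A3 being the exception. Over all genes higher in the CA-p38 line only, 55.0% of 111 promoters held a match, near the share of all protein-coding genes tested. A match is a description of the letters and not a binding site, and SLC16A3, the gene with the largest difference, has none in this window.

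PPFIA4 (liprin-α4, chr1:203026491-203078740, plus strand), a synaptic scaffold protein, was the one gene of at least 5 CPM that was called in opposite directions. It was measured at 7.70 CPM in CA-p38 naive, 2.26 in CA-p38 primed, 4.37 and 4.35 in AICAR 1 and 2, 9.84 in VPA naive and 26.2 in EOS primed. Within the CA-p38 line it was 3.41-fold higher (2.75 to 4.25), while its log2 fold was -2.58, -2.59 and -1.42 in AICAR 1, AICAR 2 and VPA over EOS primed. The naive libraries lay between the primed libraries, which differed from each other by 3.53 on the log2 scale, and the log2 fold of CA-p38 naive over EOS primed was -1.77. The other 3 genes were HTR6, ARHGAP40 and the long noncoding RNA AL355601, all under 1 CPM in every library.

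Among genes lower in the CA-p38 line only, 8 of the 10 farthest from the EOS-derived folds were CDH6, ZNF165, ID4, MAP1A, C12orf29, CADM1, ZNF483 and ZNF594. MAP1A, a microtubule-associated protein, was at 7.72 CPM in CA-p38 naive, 30.3 in CA-p38 primed, 12.3 and 20.8 in AICAR 1 and 2, 7.61 in VPA naive and 14.2 in EOS primed. ID4 (4.04-fold, 3.27 to 5.02) and CDH6 (3.31-fold, 2.76 to 4.0) were at 8.85 and 10.1 CPM in CA-p38 primed. In each of the 8 the CA-p38 primed library had the highest value of the 6.

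The class changed in the EOS-derived libraries only holds genes that were level in the CA-p38 line. EGLN1 (PHD2), the oxygen sensor that marks hypoxia-inducible factors for degradation, was at 13.4 CPM in CA-p38 naive, 13.3 in CA-p38 primed, 8.11 and 7.86 in AICAR 1 and 2, 12.1 in VPA naive and 36.7 in EOS primed. MXI1, a MYC antagonist, was at 4.31 CPM in CA-p38 naive, 7.17 in CA-p38 primed, 4.05 and 4.89 in AICAR 1 and 2, 3.51 in VPA naive and 18 in EOS primed, and FOSL2, an AP-1 factor, at 1.64 CPM in CA-p38 naive, 2.57 in CA-p38 primed, 1.04 and 0.361 in AICAR 1 and 2, 1.56 in VPA naive and 7.73 in EOS primed. In these genes EOS primed was above the other 5 libraries. With RAB20, SMIM3, YPEL1, THNSL1, SDK1, CTCFL and FAM47E-STBD1 they made up the 10 of the lower direction. In the higher direction were GTSF1, MIXL1, NKX1-2, GPR85, QRICH2, PCSK5, ZNF799, MAPK8IP2, DLC1 and RHOXF1P3. PCSK5, a proprotein convertase that processes Nodal-type ligands, was at 82.2 CPM in CA-p38 naive, 69.5 in CA-p38 primed, 67.3 and 84.1 in AICAR 1 and 2, 63.0 in VPA naive and 25.8 in EOS primed. MIXL1, a mesendoderm factor, was at 5.46 CPM in CA-p38 primed and 2.02 CPM in EOS primed, and at 4.42 CPM in CA-p38 naive and 6.79 to 8.70 CPM in the other naive libraries. GTSF1, a piRNA pathway gene, varied among the naive libraries themselves, at 3.56 CPM in CA-p38 naive, 4.15 and 16.3 CPM in AICAR 1 and 2 and 18.6 CPM in VPA naive.

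In the same 13202 genes the median size of the log2 fold between CA-p38 naive and CA-p38 primed was 0.69. The median size of the difference between CA-p38 naive and AICAR 1, AICAR 2 and VPA naive was 0.15, 0.16 and 0.18, near the 0.16 between the AICAR libraries and the 0.17 between the primed libraries. For each gene not moved alike, the difference between its CA-p38 fold and the mean of its 3 EOS-derived folds is the sum of a difference between primed libraries and a difference between naive libraries. Among the 241 genes of at least 5 CPM changed in the CA-p38 line only, the primed difference was the larger in 179 (74.3%). The median size of the primed difference was 0.43 on the log2 scale and that of the naive difference 0.19. Among the 162 such genes changed in the EOS-derived libraries only, the primed difference was the larger in 104 (64.2%), with medians of 0.38 and 0.24. The naive value is a mean over 3 libraries and the primed value a single library, and the classes were drawn from the same libraries, so that this split describes where the values lie and tests nothing. For SLC16A3 the primed difference was 3.90 and the naive difference 0.15, for BNIP3 2.25 and 0.16, and for SDK1 0.27 and 1.35. In SDK1 the naive difference was thus the larger, but CA-p38 naive was not called apart from each of the other naive libraries in the direct comparison below.

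**Figure D4:**
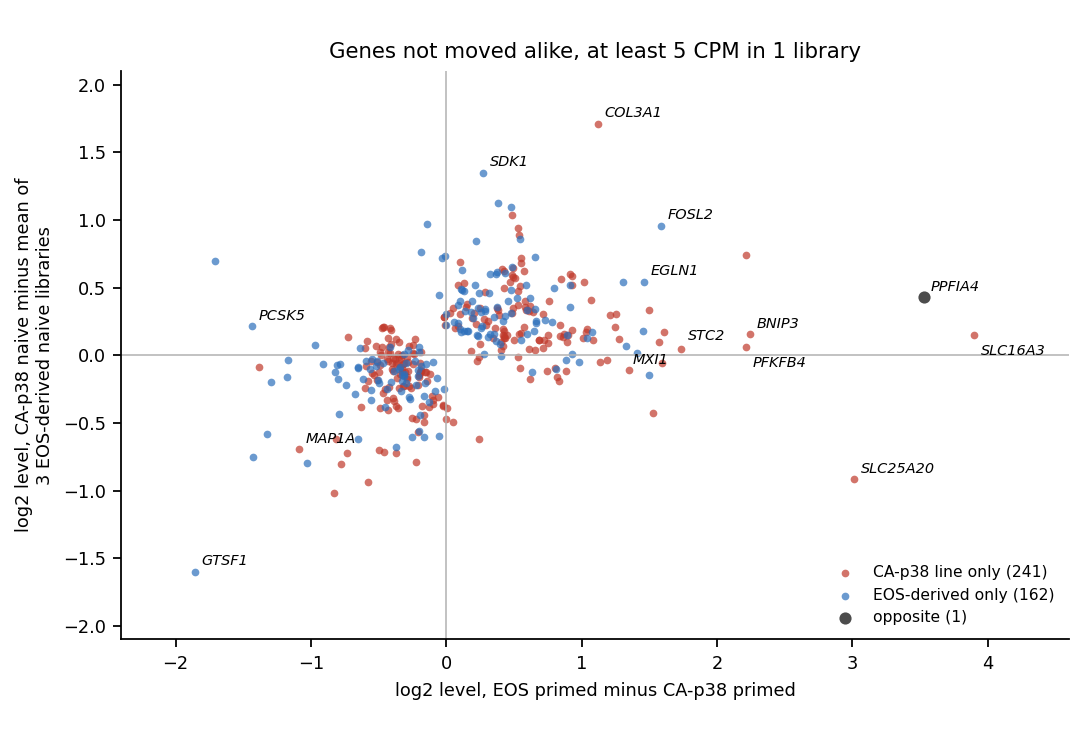
Each point is a gene of at least 5 CPM in 1 library that did not move alike in the CA-p38 and EOS lines, with the log2 difference between the primed libraries on the x axis and the log2 difference between CA-p38 naive and the mean of the 3 EOS-derived naive libraries on the y axis. The largest differences lie along the x axis, with SLC16A3 at 3.90 and PPFIA4 at 3.53, while COL3A1 (1.71) and GTSF1 (-1.60) are the farthest along the y axis.

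Where the CA-p38 naive library was compared with the other naive libraries directly, an addition made after the data had been seen, 78 genes were called higher and 31 lower than in each of AICAR 1, AICAR 2 and VPA naive (0.341% of 31962). Of them 3 were protein-coding with at least 5 CPM. COL1A1 was at 27.9 CPM in CA-p38 naive, 59.9 in CA-p38 primed, 9.48 and 11.5 in AICAR 1 and 2, 11 in VPA naive and 60.6 in EOS primed, and COL3A1 at 16.5 CPM in CA-p38 naive, 2.2 in CA-p38 primed, 5.14 and 7.02 in AICAR 1 and 2, 3.55 in VPA naive and 4.80 in EOS primed. Both encode fibrillar collagens of fibroblasts. CR1L, a complement receptor-like gene, was lower than in the other naive libraries, at 4.94 CPM in CA-p38 naive, 0.0411 in CA-p38 primed, 14.5 and 12.3 in AICAR 1 and 2, 17.2 in VPA naive and 0.102 in EOS primed. Since CR1L had 2 counts in CA-p38 primed, its ratio within the line was 120.2-fold (32.9 to 998).

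Of 9 fibroblast markers tested 3 were higher and 4 lower in CA-p38 naive than in CA-p38 primed. LUM (lumican) stood at 1.17 CPM in CA-p38 naive and at 0.311 CPM or less in the other libraries. DCN (decorin) was not called, at 1.20 CPM against 0.513 CPM. PDGFRB, a defining fibroblast receptor, was at 0.0988 CPM in CA-p38 naive and 16.3 CPM in CA-p38 primed, and FAP had 0 counts in both. The summed level of the 10 markers was 77.2 CPM in CA-p38 naive, 35.0, 53.1 and 45.4 CPM in the other naive libraries, and 193 and 213 CPM in the primed libraries. Naive cells were first grown on mouse fibroblasts and sorted as CD75 and SUSD2 positive before RNA was made, and reads were mapped to human transcripts. Whether the sequenced CA-p38 naive cells were still on feeders is not given in the sources used here. A part of mouse reads in the collagen values was not tested.

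The remaining marker lists were small. Amnion markers were called higher for 3 of 7 and lower for 2, with GABRP level at 96.1 and 72.6 CPM and ISL1 at 3.87 against 0.390 CPM. Neural markers were higher for 2 of 11 and lower for 3, including NES (5.83-fold, 5.65 to 6.02) and MAP2, which had 0 counts in CA-p38 naive. Mesoderm markers were higher for 3 of 8 and lower for 3, with KDR 72.9-fold lower (57.7 to 93.5) and TBXT 3.44-fold higher (2.35 to 5.15). Germ cell markers were higher for 3 of 6 and lower for 3: PRDM1 (13.6-fold, 11.4 to 16.5) and SYCP3 (255-fold, 172 to 394) were higher, KIT was 3.82-fold lower (3.27 to 4.47) and NANOS3 had 0 counts in both libraries. The other higher marker, TFAP2C, is also a naive state gene, and SOX17, among the lower, is also an endoderm marker.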

How the data were processed

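RNA of 6 bulk cultures was sequenced after polyA selection with a stranded library kit, and the deposited table gives raw counts per gene, which the authors had made by trimming (cutadapt 1.15, Trim Galore 0.4.4), mapping with Bowtie2 to Ensembl GRCh38 transcripts and summing reads over a gene, with RSEM and limma also named in their processing notes. Whether strand was used in counting is not given in the sources used here, so that overlapping and antisense genes cannot be told apart. A table of 61222 features was read; 26 spike-in sequences and 23 columns of other studies were left out. Of 61196 gene identifiers 56154 were placed in GENCODE release 44.

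Library sizes were scaled by TMM (edgeR 4.0.16, R 4.3.3), and CPM are counts over the scaled total. Genes with at least 10 counts in 1 library of a comparison were kept. Point log2 folds used a prior count of 0.5. Intervals are exact Clopper-Pearson limits (95%, scipy 1.17.1) on the share of a gene's counts in 1 of 2 libraries, and cover counting error only. A gene at 0 counts was given a bound against 3 counts. With 1 library per group no model was fitted and no p-value computed. Groups were taken from the labels. The calculation was tested on simulated data. The members, lists and classes were chosen with earlier results of these data known. Named genes were those of the lists (examples), MAPK14, and, among protein-coding genes of at least 5 CPM, the 10 with interval bounds farthest from no change in each direction and the 10 farthest from the EOS-derived folds in each class and direction, with 5 long noncoding RNAs in each direction. A few genes that this rule names are not reported here. DDIT4 and PPFIA4 were drawn beside the hypoxia genes after their values were seen, and the mitochondrial genes, the promoter search and the direct comparison of naive libraries were added after the data had been seen. DESeq2 1.42.0 gave alternative size factors only. Promoters were taken from RefSeq (GRCh38.p14).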

Additional observations from a re-analysis of the deposited data

Results flagged for a closer look

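Opposite directions in the CA-p38 line and in the 3 comparisons that share EOS primed were found in 4 genes, and the difference was not tested, since each line has 1 primed library. PPFIA4 had a log2 fold of 1.77 in the CA-p38 line. HTR6 had a log2 fold of 4.19, with 28 counts in CA-p38 naive and 1 in CA-p38 primed, against 3, 0, 1 and 22 counts in AICAR 1, AICAR 2, VPA naive and EOS primed. The long noncoding RNA AL355601 had a log2 fold of 4.47 with a prior count of 0.5, from 11 counts in CA-p38 naive and 0 in CA-p38 primed, with 26 counts in EOS primed. ARHGAP40 had a log2 fold of -5.61, from 0 counts in CA-p38 naive and 23 in CA-p38 primed, with 17, 19, 18 and 1 counts in AICAR 1, AICAR 2, VPA naive and EOS primed. The last 3 rest on few counts, and folds against a library at 0 depend on the prior count.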

How the results depend on the processing

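With 1 library in each group the values show counting error and not the spread between cultures. No paired analysis was possible because each CA-p38 group holds 1 library and no test was made. The counts of genes higher, lower and not moved alike stayed within 1.5 times under DESeq2 size factors, library totals, summed identifiers and no filter. Scaling by library totals shifted all log2 folds by 0.13 (to 5170 higher and 4127 lower genes) and ended the calls of COL1A1, FGF2 and SLC30A1. It moved 3 of 72 list counts by more than 1.5 times or to 0. Other list counts changed by less, such as respiratory chain genes called higher, from 8 to 11. With at least 10 counts in every library 2804 genes were higher and 1 was opposite, since genes with fewer counts in any of them were then left out. An interval beyond 4-fold left 1905 higher and 2069 lower genes, and a point value beyond 2-fold 7671 higher genes. An unchanged range of 1.5-fold left 100 genes in the CA-p38 line only and 96 in the EOS-derived libraries only. Leaving out 1 EOS-derived naive library gave 637 to 711 genes in the CA-p38 line only, 483 to 562 in the EOS-derived libraries only and 5 to 8 in opposite directions. Scaling over the 2 CA-p38 libraries alone was not run for the classes, which need the EOS libraries. With EOS primed as the reference 6 of 211 named genes reversed in sign, at log2 folds of -0.35 (BNIP3), -0.34 (DDIT4), -0.13 (PFKFB4), -0.0390 (PLOD2), -1.77 (PPFIA4) and -0.98 (SLC25A20), and 18 lost their call. Of the 6, all but PPFIA4 lay within 2-fold. The cause of these changes was not tested.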
